A study of Mus musculus with 4 samples.

Results

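Enriched colonic epithelial cells (CECs) of mice with TNBS colitis, with and without indole-3-carbinol (I3C), were compared on 2 of the 4 arrays of the series, TNBS+I3C and TNBS+Vehicle. For each gene, the log2 signal in TNBS+Vehicle was subtracted from that in TNBS+I3C. Of 65956 probe sets, 30649 paired with 1 gene symbol, and with the brightest probe set kept per gene they gave 30187 genes, of which 19058 are protein-coding. The mice were females of the BALB/cJ strain aged 8 to 10 weeks. Both colitis groups received 1 mg of TNBS into the rectum, and TNBS+I3C mice were injected intraperitoneally with I3C at 40 mg/kg every day to day 5, whereas TNBS+Vehicle mice received the DMSO and corn oil carrier. The Vehicle group received ethanol in place of TNBS and carrier in place of I3C, and the I3C group received ethanol and I3C. The labels and the study's methods differ in the volume and ethanol content of the TNBS solution, and the labels' extraction note names whole colon where their cell type is epithelial cells enriched from colon. RNA was pooled within each group and hybridised to 1 array, so no difference could be tested, and the values describe these pools.

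I3C is formed from a compound of cruciferous vegetables, and it and its condensation products are ligands of the aryl hydrocarbon receptor (AhR), a transcription factor that pairs with ARNT and binds dioxin response elements in DNA. AhR is widely known for inducing cytochromes of the CYP1 family, and in the gut its ligands act on both epithelial and immune cells. TNBS is a hapten that, given with ethanol to break the mucus barrier, provokes an acute colitis rich in neutrophils and T cells.

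The pan-epithelial markers were above background in all 4 arrays (14 of 14 genes), and their summed signal lay between 20.76 and 20.97 on the log2 scale. Epcam, the surface protein used to enrich the cells, read 17.06 in TNBS+Vehicle and 17.13 in TNBS+I3C. The paper's flow cytometry found the enrichment incomplete, so the preparations also held cells without EPCAM. Background was taken from 1721 probe sets of olfactory and vomeronasal receptors, genes of sensory neurons, whose 95th percentile lay between 5.23 and 5.43 in the 4 arrays. Signals at or below 5.43 were raised to that level before subtraction, so a difference with 1 array at background is a bound, and such folds are given as "at least". The bright end is also limited, since no probe set exceeded 19.93.

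Among protein-coding genes, 95 were higher by 2-fold or more in TNBS+I3C (0.498% of 19058) and 161 were lower by as much (0.845%). With non-coding genes included, the counts were 150 (0.497% of 30187) and 188 (0.623%). For coding genes the lower count was the larger under each other normalization, floor and probe set rule tried. Over all genes it was not, since quantile normalization gave 178 higher and 169 lower and median centring 171 and 176. Among coding genes the lower side outnumbered the higher by more, in proportion, as the threshold rose. At 4-fold the coding counts were 18 higher (0.0944%) and 55 lower (0.289%). At 8-fold they were 3 (0.0157%) and 31 (0.163%), and at 16-fold 1 (0.00525%) and 18 (0.0944%). Of the 161 lower genes, 33 were not above background in TNBS+I3C, and of the 95 higher genes, 3 were not above background in TNBS+Vehicle. The median difference over coding genes was 0. In all, 9982 coding genes were above background in at least 1 of the 2 arrays, and 9076 were at background in both and have no direction. By any amount, 24.1% of coding genes were higher and 27.0% lower. The spread of the difference depended on the signal. Its SD rose from 0.383 across 4216 genes with a mean of 6 to 8 to 0.665 across 138 genes with a mean of 14 to 16, and was 0.58 across 42 genes at 16 to 18 and 0.201 across 37 genes at 18 to 20. For I3C against Vehicle the SD was 0.185 at 6 to 8, 0.389 at 14 to 16, 0.307 at 16 to 18 and 0.3 at 18 to 20. These are spreads across genes, not replicate errors. The genes just past the threshold included the secretory cell regulator Atoh1 at 1.02 and the antimicrobial lectin Reg3b at 1.02, and just short of it were the proton pump gene Atp12a at 0.99 and the mitotic kinesin Kif11 at -0.95.

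**Figure D1:**
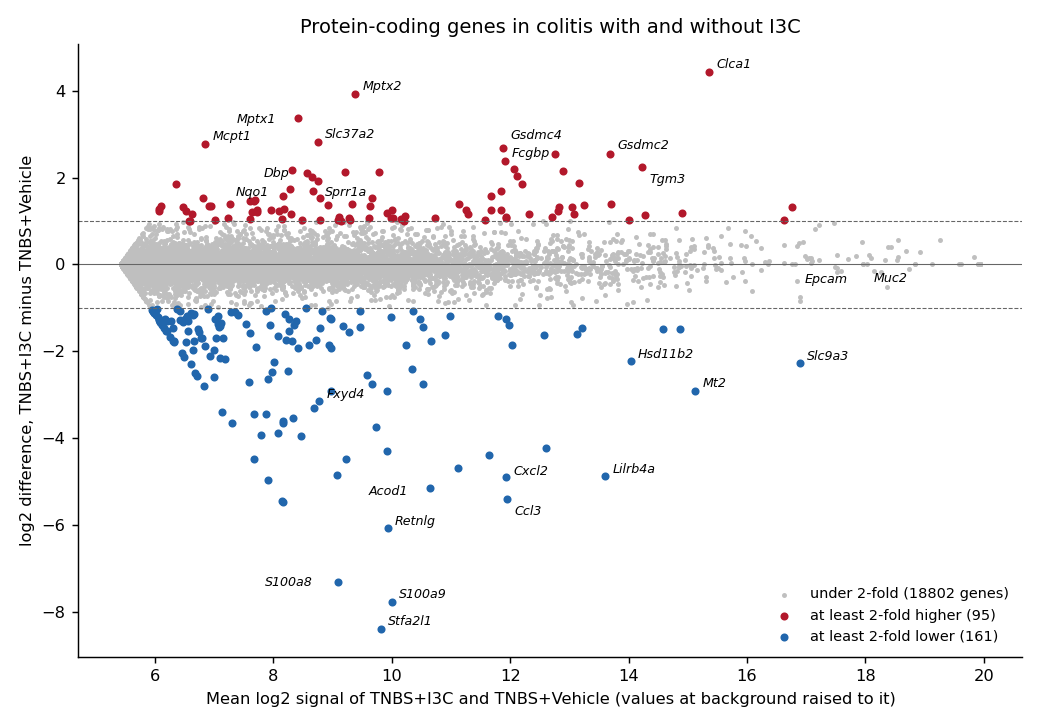
Each point is a protein-coding gene, with the mean log2 signal of the TNBS+I3C and TNBS+Vehicle arrays on the x axis and the log2 difference between them on the y axis. Dashed lines mark 2-fold. Red points are the 95 higher and blue points the 161 lower genes past that threshold. The lower genes reach -8.38 (Stfa2l1) and the higher genes 4.43 (Clca1).

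The 4 largest differences were at genes of neutrophils, all of them lower with I3C. Stfa2l1, a stefin made by mouse neutrophils, read 4.98 in Vehicle, 5.43 in I3C, 14.01 in TNBS+Vehicle and 5.63 in TNBS+I3C, a 333-fold lower signal in TNBS+I3C than in TNBS+Vehicle. S100a9, a subunit of the antimicrobial complex calprotectin, read 5.64, 6.33, 13.88 and 6.13 in the same order and was 215-fold lower. S100a8, which encodes the other subunit, read 4.34, 3.54, 12.74 and 4.23 and was at least 159-fold lower. For all 3 genes the TNBS+Vehicle array stood alone, and TNBS+I3C lay with the arrays without colitis. Retnlg, a resistin-like protein of neutrophils, read 6.15 in Vehicle, 5.46 in I3C, 12.97 in TNBS+Vehicle and 6.90 in TNBS+I3C, a difference of -6.07. The collagenase gene Mmp8 (10.87 in TNBS+Vehicle, 4.70 in TNBS+I3C) and the protease gene Asprv1 (10.90 and 5.24) were at least 43.4-fold and at least 44.3-fold lower. Lcn2, the iron-chelating lipocalin that neutrophils and inflamed epithelium release, went from 9.91 to 5.11 and was at least 22.3-fold lower. Csf3r, the receptor for granulocyte colony-stimulating factor, was 12.5-fold lower. So was Hdc, which makes histamine and is expressed by mast cells as well.

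Across the neutrophil markers, 23 of 27 measured genes were lower and none higher, with 18 past 2-fold and a median difference of -2.92, against 0 over all coding genes. The other 4 were at background in all 4 arrays: Elane, Mpo and Ltf, granule proteins made by bone marrow precursors, and Padi4. The markers above background numbered 11 in Vehicle, 9 in I3C, 23 in TNBS+Vehicle and 12 in TNBS+I3C, and their summed log2 signal was 12.02, 12.53, 16.10 and 12.90. Markers above background in TNBS+Vehicle but not in TNBS+I3C could only come out lower. The list was drawn up with earlier results of these data known, so its counts and median are a description and no test. Cxcr2, the receptor that guides neutrophils to tissue, went from 6.64 in TNBS+Vehicle to 6.02 in TNBS+I3C. In RNA from pooled cells, fewer neutrophils in the preparation and less neutrophil RNA per cell cannot be told apart. Members of the stefin family resemble each other in sequence, and their probe sets may share signal.

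Receptors of myeloid cells were lower as a group. This list shares Trem1, Clec4d and Clec4e with the neutrophil markers, so it is not a separate result for those genes. Of 26 genes listed as lectins, Fc receptors and paired receptors, 18 were lower and 1 higher. Past 2-fold were 15 of the lower ones, and the median was -1.51. The list also holds the adaptor Tyrobp and the receptors Mrgpra2a and Mrgpra2b, which are none of these types. Both Mrgpra2 genes are among the 25 lowest coding genes of this contrast. Lilrb4a, an inhibitory immunoglobulin-like receptor, read 9.99 in Vehicle, 9.72 in I3C, 16.04 in TNBS+Vehicle and 11.17 in TNBS+I3C. Its relative Lilr4b read 9.66, 9.33, 14.71 and 10.49. In both, TNBS+I3C lay between TNBS+Vehicle and the arrays without colitis. Igsf6, an immunoglobulin-like protein of myeloid cells, was 25.6-fold lower, from 13.46 to 8.78. Mrgpra2a and Mrgpra2b, receptors by which mouse neutrophils sense antimicrobial peptides, differed by -4.83 and -3.93. Probe sets of this pair, and those of Lilrb4a and Lilr4b, may share signal. Trem1, which amplifies inflammatory signals in neutrophils and monocytes, differed by -3.44 and its adaptor Tyrobp by -1.96. The macrophage and monocyte markers gave a mixed picture. Cd14, the co-receptor for endotoxin, was 6.68-fold lower, Cd68 differed by -1.69 and Ly6c2 by -1.58, while the tissue macrophage markers Adgre1, C1qa, C1qb, C1qc, Mrc1 and Cd163 were at background in all 4 arrays. Of 15 measured genes of that list, 6 were lower, 3 past 2-fold, and 9 stayed at background in both colitis arrays.

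A few inflammatory mediators were far lower with I3C, while most of the mediators listed were under 2-fold or at background. The preparations also held cells without EPCAM, and the cell of origin of these mediators was not tested. Il1r2, named below, is also in the neutrophil list. Ccl3, a chemokine for monocytes and neutrophils, read 7.99 in Vehicle, 7.75 in I3C, 14.64 in TNBS+Vehicle and 9.25 in TNBS+I3C and was 41.9-fold lower with I3C. Cxcl2, a ligand of the neutrophil receptor CXCR2, read 8.54, 7.88, 14.38 and 9.49 and was 29.7-fold lower. Cxcl3, a close relative, read 6.27, 6.29, 8.66 and 6.76, a difference of -1.90. These were the only chemokines of the 24 listed past 2-fold, and Ccl6, counted with the goblet and mucus genes, was higher by 1.19. Of the 24, 8 were lower and 6 higher, the highest being Ccl5 at 0.51, and 10 were at background in both arrays, among them Ccl2, Ccl4, Cxcl5 and Cxcl9, so that the median was 0. In the interleukin-1 family, 11 of 19 genes were lower, 5 of them past 2-fold, and 3 higher, with a median of -0.16. Il1b, the secreted form activated by inflammasomes, read 8.30 in Vehicle, 7.98 in I3C, 13.83 in TNBS+Vehicle and 9.45 in TNBS+I3C, and Il1a, the alarmin, 6.62, 7.21, 11.46 and 6.99. Il1f9, an epithelial and myeloid cytokine also called IL-36 gamma, was 19.4-fold lower, Nlrp3, the inflammasome sensor, 15.3-fold lower and the decoy receptor Il1r2 12.1-fold lower. Il1rn, the receptor antagonist, went from 12.07 to 11.13 and stayed above its 9.49 in Vehicle. Tnf read 8.65, 8.84, 11.54 and 9.14 and was the only one of 30 other cytokine and receptor genes past 2-fold. Of these 30, 11 were lower, 3 higher and 16 at background in both arrays, with a median of 0. Il22, the cytokine that drives epithelial defence, was at background in all 4 arrays, and its receptor Il22ra1 read 10.33 in TNBS+Vehicle and 10.28 in TNBS+I3C.

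The promoters of Cxcl2 and Cxcl3 carry matches to an NF-kappaB motif, and are shown because both chemokines are past 2-fold lower. Promoter windows were the 250 bases before the RefSeq start of each gene (GRCm38.p6), and 8 motifs were searched on both strands. The NF-kappaB motif, GGG followed by any 2 bases and TTTCC, lay in 1.34% of 15445 coding promoters, in 5 of the 133 lower genes with a window (3.76%) and in 2 of the 76 higher genes with one (2.63%). The 5 were Cxcl2, Cxcl3, Steap4, Pglyrp1 and Olfm4. The windows read 5′ to 3′ along the gene, with the matches in capitals.
Cxcl2 (chr5:90903649-90903898, + strand): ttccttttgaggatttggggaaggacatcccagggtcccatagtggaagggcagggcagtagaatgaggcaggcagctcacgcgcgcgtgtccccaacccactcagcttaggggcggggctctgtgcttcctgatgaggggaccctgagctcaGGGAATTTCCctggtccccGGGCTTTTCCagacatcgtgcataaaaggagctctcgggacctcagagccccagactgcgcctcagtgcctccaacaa
Cxcl3 (chr5:90785851-90786100, + strand): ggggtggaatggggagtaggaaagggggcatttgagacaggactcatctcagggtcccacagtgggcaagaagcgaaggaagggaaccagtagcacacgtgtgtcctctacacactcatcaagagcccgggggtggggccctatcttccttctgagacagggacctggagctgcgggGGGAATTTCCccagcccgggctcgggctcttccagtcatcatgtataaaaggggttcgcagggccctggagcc
Cxcl2 has 2 matches and Cxcl3 has 1. A match is a stretch of letters and says nothing of binding.

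Genes of the NF-kappaB pathway itself were mostly lower by less than 2-fold. Of 19 subunits and feedback genes, 16 were lower and 3 higher. Only Icam1, the leukocyte adhesion molecule (7.80 to 6.37), and the inducible regulator Nfkbiz (12.55 to 11.30) were past 2-fold, and the median was -0.38. Acute phase and STAT3-linked genes split. Saa3, a serum amyloid of inflamed tissue, read 5.87 in Vehicle, 6.45 in I3C, 9.39 in TNBS+Vehicle and 5.95 in TNBS+I3C, and the haemoglobin scavenger haptoglobin, Hp, was 6.50-fold lower. Saa1 and Saa2 differed by -1.48 and -1.61. The bactericidal lectins Reg3g and Reg3b were higher instead. Reg3g read 6.63, 6.75, 7.38 and 8.95, a difference of 1.57, and Reg3b 9.29, 9.25, 13.50 and 14.52, so that TNBS+I3C held the highest value of the 4 arrays for both. In this list 7 of 20 genes were lower and 2 higher by 2-fold or more. Among oxidases and nitric oxide genes, 5 of 16 were lower by 2-fold or more and none higher. Acod1, which makes the antibacterial metabolite itaconate, was 35.0-fold lower, the arginase gene Arg2 differed by -2.53, the phagocyte oxidase subunit Ncf1 by -1.86 and the epithelial oxidase Duox2 by -1.01. Ptgs2, the inducible cyclooxygenase, read 7.87, 7.50, 11.38 and 8.46, and Alox5ap, needed for leukotriene synthesis, 6.07, 6.07, 10.02 and 6.14. For these genes, too, the cell of origin was not tested.

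**Figure D2:**
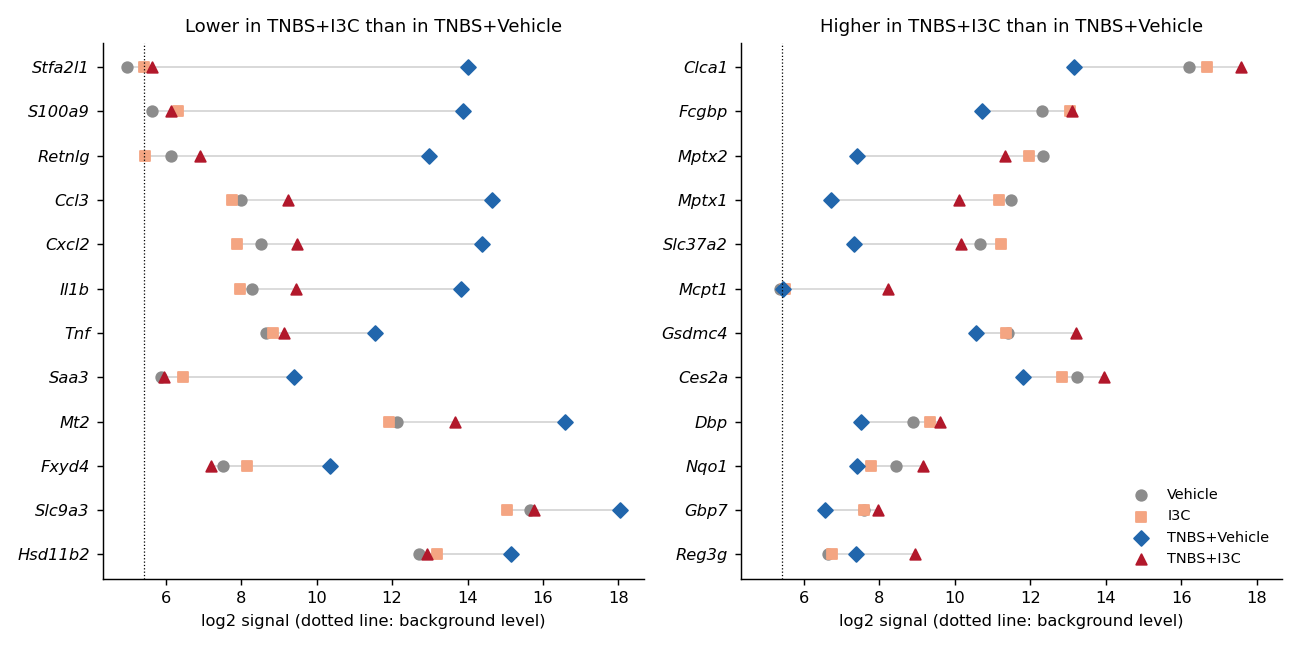
The log2 signal of 12 genes lower (left) and 12 genes higher (right) in TNBS+I3C than in TNBS+Vehicle, with 1 point for each of the 4 pooled arrays and a dotted line at the background level of 5.43. In the left panel TNBS+Vehicle is the rightmost point in every row. In the right panel TNBS+I3C is the rightmost point for 9 of the 12 genes, and Mcpt1 is near background in the other 3 arrays.

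Mucus and secretory genes led the higher side. Clca1, a protease secreted by goblet cells that shapes the mucus layer, read 16.20 in Vehicle, 16.67 in I3C, 13.15 in TNBS+Vehicle and 17.58 in TNBS+I3C, a 21.6-fold higher signal with I3C and the highest of the 4 arrays. Fcgbp, a large mucus protein that binds MUC2, read 12.30, 13.04, 10.71 and 13.10. Muc2, the gel-forming mucin of the colon, read 18.31, 18.80, 18.28 and 18.38, a difference of 0.10 near the upper end of the scale. Tff3, a trefoil peptide secreted with mucin, read 13.24, 14.31, 13.45 and 14.03, a difference of 0.58. Of 32 goblet and mucus genes, 24 were higher and 5 lower, with 6 past 2-fold, all higher, and a median of 0.25. Besides Clca1, Fcgbp and the pentraxins Mptx1 and Mptx2, the 6 were the chemokine Ccl6 at 1.19 and Atoh1, which directs precursors to secretory fates, at 1.02. Creb3l1 was the lowest of the list, from 11.51 to 10.72. Tgm3, a transglutaminase, differed by 2.25 and Sval1, a seminal vesicle antigen-like protein, by 2.19.

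The mucosal pentraxins, lectin-like proteins of the gut lining, differed most after Clca1 among the higher coding genes. Mptx2 read 12.34 in Vehicle, 11.97 in I3C, 7.42 in TNBS+Vehicle and 11.34 in TNBS+I3C, and Mptx1 read 11.49, 11.17, 6.73 and 10.11. Both were higher with I3C, by 15.1-fold and 10.4-fold, and neither reached its value in the arrays without colitis. The genes lie on the same chromosome, and their promoter windows are shown because the genes moved together. In capitals are the longest runs of letters the windows share, 2 runs of 21 bases each, and the windows aligned at 197 of 250 positions.
Mptx1 (chr1:174330268-174330517, + strand): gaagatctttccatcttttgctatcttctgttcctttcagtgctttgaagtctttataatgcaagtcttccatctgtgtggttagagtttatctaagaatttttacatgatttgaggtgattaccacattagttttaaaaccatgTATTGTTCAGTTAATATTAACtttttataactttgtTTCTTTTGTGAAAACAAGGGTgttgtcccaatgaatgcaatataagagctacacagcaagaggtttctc
Mptx2 (chr1:173277757-173278006, - strand): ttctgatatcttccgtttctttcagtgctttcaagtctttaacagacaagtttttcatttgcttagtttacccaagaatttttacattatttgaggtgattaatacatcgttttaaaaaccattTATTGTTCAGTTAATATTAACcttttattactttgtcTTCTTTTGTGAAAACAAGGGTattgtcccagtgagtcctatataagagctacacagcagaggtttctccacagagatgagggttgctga
Since the genes are close copies, their probe sets may share signal.

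Gasdermins of the C group, epithelial proteins that can form membrane pores, were higher too. Gsdmc4 read 11.42 in Vehicle, 11.36 in I3C, 10.55 in TNBS+Vehicle and 13.22 in TNBS+I3C. Gsdmc2 read 13.41, 13.34, 12.43 and 14.96, and Gsdmc3 read 12.55, 12.62, 11.50 and 14.03. In each, TNBS+I3C was the highest array and TNBS+Vehicle the lowest. The copies are near-identical in sequence, so their values may not be independent. Gsdmc differed by 0.84 at a signal of 6.49 in TNBS+I3C, and the remaining members of the 7 were under 2-fold or at background.

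A pair of mast cell proteases were highest in TNBS+I3C. Mcpt1, a chymase of mucosal mast cells, read 5.36 in Vehicle, 5.49 in I3C, 5.46 in TNBS+Vehicle and 8.23 in TNBS+I3C, with the first 3 values close to the background level of 5.43. Mcpt2, its neighbour, read 5.24, 5.36, 5.09 and 7.28 and was at least 3.61-fold higher. Of the 11 mast cell markers, Cpa3, Tpsb2, Cma1, Fcer1a, Ms4a2 and Gata2 were at background in all 4 arrays. Mcpt4 was at least 1.16-fold higher, Kit, which other cells express as well, went from 7.33 to 8.17, and Hdc was lower. Markers of T cells and intraepithelial lymphocytes were higher in 9 of 15 measured genes and lower in none, but none reached 2-fold. The largest were Cd3g, at 6.40 in TNBS+Vehicle and 7.28 in TNBS+I3C, and Cd3e, at 5.66 and 6.45. The part of mast cells and lymphocytes in the differences of other genes was not tested. None of 9 endothelial genes and 1 of 8 smooth muscle and glia genes was above background in these 2 arrays.

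Interferon-stimulated genes were higher in small steps. Of 43 measured genes, 30 were higher and 1 lower, 6 of the higher ones were past 2-fold, and the median was 0.37, with 12 genes at background in both arrays. Gbp7, a guanylate-binding protein that attacks intracellular microbes, read 7.60 in Vehicle, 7.59 in I3C, 6.57 in TNBS+Vehicle and 7.97 in TNBS+I3C. Gbp2, of the same family, read 6.45, 6.45, 5.92 and 7.14. Rsad2, the antiviral enzyme viperin, read 8.03, 7.55, 7.13 and 8.33, and Ifit1, which binds viral RNA, 7.19, 7.36, 6.50 and 7.52. In these 4 genes TNBS+Vehicle was the lowest array and TNBS+I3C the highest. Rtp4 was at least 2.43-fold higher, and Irf7, the regulator of type I interferon genes, differed by 1.03. The interferon-induced transmembrane proteins went the other way. Ifitm1 differed by -1.68, Ifitm2 by -1.24 and Ifitm3 by -1.15, genes that were named after their values were seen and that myeloid cells express strongly. Antigen presentation genes were higher in 15 of 20 cases and lower in 1, none past 2-fold, with a median of 0.25, and B2m, the light chain of class I molecules, went from 16.68 to 17.20.

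The core of the interferon-stimulated response element, 2 copies of GAAA set 2 bases apart, lay in 3.06% of the 15445 coding promoters. It lay in 8 of the 76 higher genes with a window (10.5%) and in 9 of the 133 lower ones (6.77%). The 9 were Saa3, Pilra, Pilrb1, Pilrb2, Tgfbi, Ncf1, Tnfrsf1b, Alpi and the interferon-induced Ifitm2. The 8 were Gbp2, Gbp7, Rsad2, Ifit1, Ifit1bl1, Ifit1bl2, Ddx60 and Gal3st2, of which all but Gal3st2 belong to interferon-induced families or are induced by interferon. The windows of 4 of them are shown because these genes are among the leading ones of the interferon list, with matches in capitals. Along these genes the motif reads as its complement, 2 copies of TTTC.
Gbp2 (chr3:142620413-142620662, + strand): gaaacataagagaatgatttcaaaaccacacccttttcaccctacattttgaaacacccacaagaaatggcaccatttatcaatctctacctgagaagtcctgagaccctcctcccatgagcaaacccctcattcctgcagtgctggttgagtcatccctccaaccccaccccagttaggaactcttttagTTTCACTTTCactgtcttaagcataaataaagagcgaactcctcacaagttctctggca
Gbp7 (chr3:142530086-142530335, + strand): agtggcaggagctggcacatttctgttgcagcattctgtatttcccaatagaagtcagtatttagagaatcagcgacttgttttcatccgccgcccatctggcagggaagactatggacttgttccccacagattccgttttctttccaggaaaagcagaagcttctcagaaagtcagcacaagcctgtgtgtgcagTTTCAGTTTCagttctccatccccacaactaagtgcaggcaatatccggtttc
Rsad2 (chr12:26456453-26456702, - strand): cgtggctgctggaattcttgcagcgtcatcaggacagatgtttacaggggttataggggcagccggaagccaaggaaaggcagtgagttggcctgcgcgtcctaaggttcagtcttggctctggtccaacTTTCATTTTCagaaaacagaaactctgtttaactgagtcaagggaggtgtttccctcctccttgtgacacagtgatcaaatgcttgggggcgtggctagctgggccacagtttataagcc
Ifit1 (chr19:34640639-34640888, + strand): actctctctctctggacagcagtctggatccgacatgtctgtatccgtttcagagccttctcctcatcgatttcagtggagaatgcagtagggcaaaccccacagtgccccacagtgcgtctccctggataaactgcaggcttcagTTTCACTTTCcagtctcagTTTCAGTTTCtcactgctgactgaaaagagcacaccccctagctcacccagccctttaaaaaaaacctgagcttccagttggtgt
Ifit1 has 2 matches in tandem. Gbp2 and Gbp7 are neighbours in 1 gene cluster, and like the 2 Ifit1-like genes they are not independent cases.

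Absorptive colonocyte genes moved in both directions. Of 16 genes of sodium absorption, 5 were lower and 1 higher by 2-fold or more. Slc9a3, the sodium and proton exchanger NHE3 of the apical membrane, read 15.66 in Vehicle, 15.05 in I3C, 18.03 in TNBS+Vehicle and 15.76 in TNBS+I3C. Hsd11b2, which inactivates glucocorticoids and so protects the mineralocorticoid receptor, read 12.71, 13.18, 15.15 and 12.92. Fxyd4, a regulator of the sodium pump, read 7.51, 8.15, 10.35 and 7.20. For these 3 genes TNBS+I3C lay close to the arrays without colitis. The epithelial sodium channel subunit Scnn1g was at least 4.35-fold lower, Scnn1b differed by -1.03 and Scnn1a, the alpha subunit, by -0.12. Nr3c2, the mineralocorticoid receptor, was higher, from 10.71 to 11.86. Guca2b, the hormone uroguanylin, differed by -1.63, whereas Aqp8, a water channel of surface colonocytes, read 12.30, 12.56, 11.28 and 13.13 and was higher by 1.85. Ano1, a calcium-activated chloride channel, was higher by 1.26, the butyrate transporter Slc5a8 by 1.13 and the peptide transporter Slc15a1 by 1.32.

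Transporter and junction genes also differed in both directions. Slc37a2, a sugar phosphate transporter, read 10.67 in Vehicle, 11.22 in I3C, 7.34 in TNBS+Vehicle and 10.16 in TNBS+I3C. Slc7a11, the cystine transporter, went from 7.21 to 5.91. Among 23 claudin and junction genes, Cldn15 (8.02 to 9.55), Cldn4 (12.19 to 13.43) and Cldn23 (12.50 to 13.67) were higher by 2-fold or more. Cldn8, a sealing claudin of the distal colon, was lower, at 9.03 in TNBS+Vehicle and 7.72 in TNBS+I3C. The calcium-binding protein S100g, a vitamin D target, read 5.53, 5.35, 3.98 and 6.77 and was at least 2.53-fold higher. The bile acid uptake transporter Slc10a2 differed by -1.40 and Slc51b, a subunit of the basolateral bile acid exporter, by -1.47, both named after their values were seen.

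**Figure D3:**
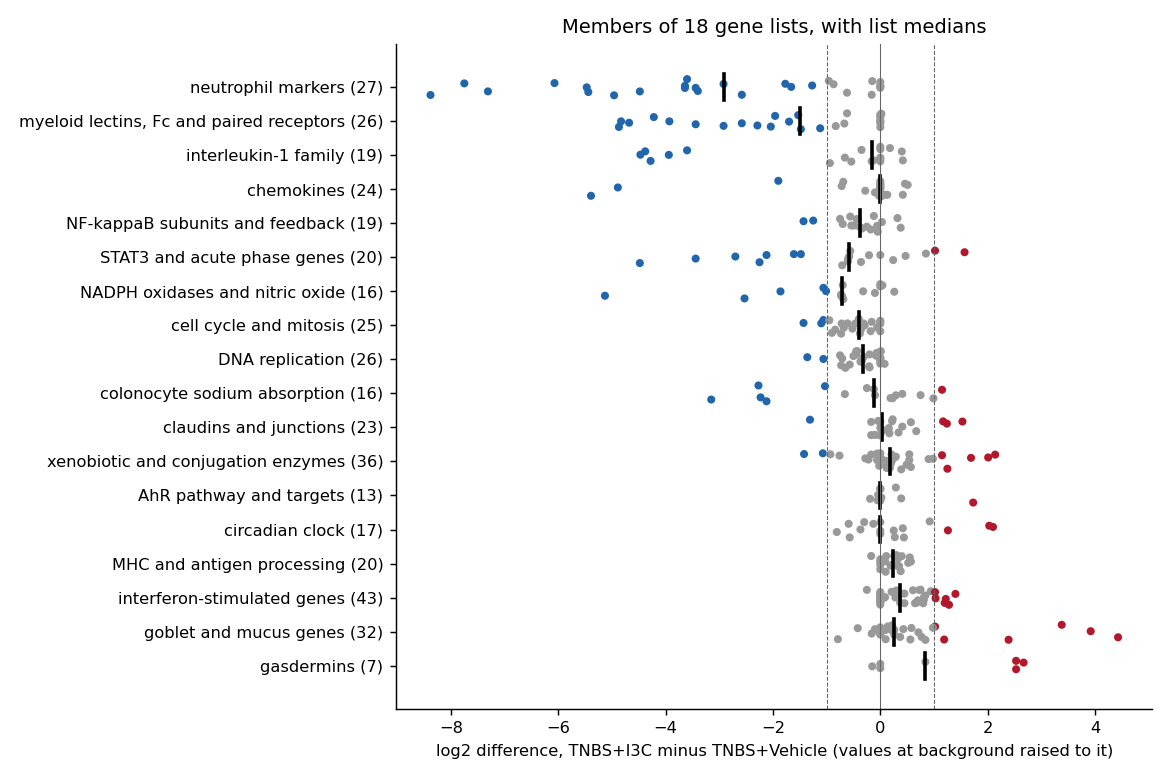
Each point is a measured member of 1 of 18 gene lists, placed by its log2 difference between TNBS+I3C and TNBS+Vehicle, with vertical scatter only to separate points. The number of members stands in brackets, black bars are list medians and dashed lines mark 2-fold. A gene in several of the lists is shown in each. The neutrophil list has the lowest median, -2.92, and the gasdermins the highest, 0.84.

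AhR targets differed little, with 1 exception. Ahr itself read 8.37 in Vehicle, 8.22 in I3C, 8.21 in TNBS+Vehicle and 8.23 in TNBS+I3C, and its partner Arnt 8.35, 8.17, 8.33 and 8.29. Cyp1a1, Cyp1b1 and Ahrr, which AhR ligands induce in many tissues, were at background in all 4 arrays, and Tiparp differed by -0.19. Nqo1, a quinone reductase that both AhR and NRF2 induce, read 8.45, 7.79, 7.42 and 9.15, and at 1.73 it was the only one of 13 measured genes of the list past 2-fold. The AhR core GCGTG was found in 32.9% of the 76 higher and 26.3% of the 133 lower genes with a window, against 34.7% of all coding promoters. The remaining motifs lay in the following shares of all, higher and lower promoters. CACGTG, the E-box, gave 6.84%, 5.26% and 8.27%. TTCNNNGAA, of the STAT factors, gave 6.77%, 5.26% and 13.5%. TGACNNNGC, of NRF2, gave 10.8%, 15.8% and 8.27%, the D-box TTACATAA gave 0.816%, 2.63% and 3.76%, and the C/EBP motif TTGCGNAA gave 0.809%, 0% and 1.5%. Matches of different motifs may overlap.

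Xenobiotic enzymes were mostly higher. Of 36 genes, 24 were higher, 5 of them past 2-fold, and 10 were lower, 2 past 2-fold, and the median was 0.18. The carboxylesterase Ces2a read 13.23 in Vehicle, 12.83 in I3C, 11.82 in TNBS+Vehicle and 13.96 in TNBS+I3C. Its relatives Ces1f and Ces1g, which share sequence, differed by 2.01 and 1.69. The conjugating enzymes Ugt2b5 and Sult1a1 differed by 1.25 and 1.15. Hmox1, the haem oxygenase of stressed and phagocytic cells, differed by -1.42 and Cyp4b1 by -1.07. Circadian clock genes differed in both directions. Of 17, 8 were higher, 3 of them past 2-fold, 6 were lower with none past 2-fold, and 3 were at background in both arrays, with a median of 0. Dbp, a D-box factor, read 8.90, 9.35, 7.51 and 9.61, Nr1d1, the repressor REV-ERB alpha, 13.44, 13.10, 11.10 and 13.13, and Nr1d2 12.04, 11.63, 11.21 and 12.47. Among the lower genes were the activators Arntl at -0.59 and Clock at -0.57, and the lowest was Cry1 at -0.81.

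Proliferation genes were lower as a group. Mki67, a marker of cycling cells, read 9.87 in Vehicle, 9.66 in I3C, 11.24 in TNBS+Vehicle and 9.81 in TNBS+I3C. Of 25 genes of cell cycle and mitosis, 21 were lower and none higher, with a median of -0.40, but only Mki67, Top2a at -1.10 and Ccna2 at -1.06 were past 2-fold. Of 26 DNA replication genes, 19 were lower and 2 higher, and Rrm1, a subunit of ribonucleotide reductase, was the lowest at -1.36. Neutrophil precursors and lymphocytes also express these genes, and the cell of origin was not tested. Of 22 genes of epithelial repair, 8 were higher and 8 lower, with a median of 0 and 2 past 2-fold, both higher. Sprr1a, a cornified envelope protein of injured gut, read 6.92, 6.86, 7.80 and 9.71, and the matrix protein Ccn1 13.18, 13.61, 12.22 and 14.09. The lowest of the list was Ly6c1 at -0.68. Adm, the peptide adrenomedullin, read 10.19, 9.99, 8.72 and 10.85, and was the only higher gene of 25 in glycolysis and hypoxia past 2-fold, while Pfkfb3 was the only lower one, at -1.29. In lipid metabolism, Pdk4, which restrains pyruvate oxidation, went from 15.32 to 13.83, and Pparg, a nuclear receptor of mature colonocytes, from 12.16 to 13.25. Heat shock genes (13 of 19 lower) and genes of the unfolded protein response (15 of 24 lower) had no member past 2-fold.

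I3C given without colitis differed from Vehicle at fewer genes, with 22 coding genes higher by 2-fold or more (0.115%) and 9 lower (0.0472%). These 2 arrays are not part of the colitis contrast, so the overlap can be read. The genes higher in both settings numbered 8, which is 8.42% of the 95 and 36.4% of the 22. They were Atoh1, Ccl6, Gal3st2, Gal3st2b, Rasd1, Sval1, Tgm3 and the predicted gene Gm1123. Gal3st2 and Gal3st2b belong to 1 family, and their probe sets may share signal, so they may not be independent cases. Tgm3 read 15.14 in Vehicle, 16.50 in I3C, 13.10 in TNBS+Vehicle and 15.35 in TNBS+I3C, and Gal3st2b, a sulfotransferase that acts on mucin sugars, 9.63, 11.48, 8.95 and 10.30. In these pools I3C went with a higher signal of both genes whether or not colitis was present. Cyp4b1 and Il1f9 were lower in both settings, which is 1.24% of the 161 and 22.2% of the 9. Hoxd13, a positional gene of the hindgut, was higher with I3C alone (1.52) and lower within colitis (-1.01), and Ugt2b5 was lower alone (-1.0) and higher within colitis (1.25). Over the 95 genes higher in colitis the median difference without colitis was -0.01, with a range from -1.0 to 1.85. Over the 161 lower genes it was 0, from -1.27 to 1.52. The goblet and mucus list had a median of 0.44 with I3C alone and 0.25 within colitis, and its 2-fold members overlapped at Atoh1 and Ccl6. Clca1 differed by 0.47 without colitis and Muc2 by 0.49.

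**Figure D4:**
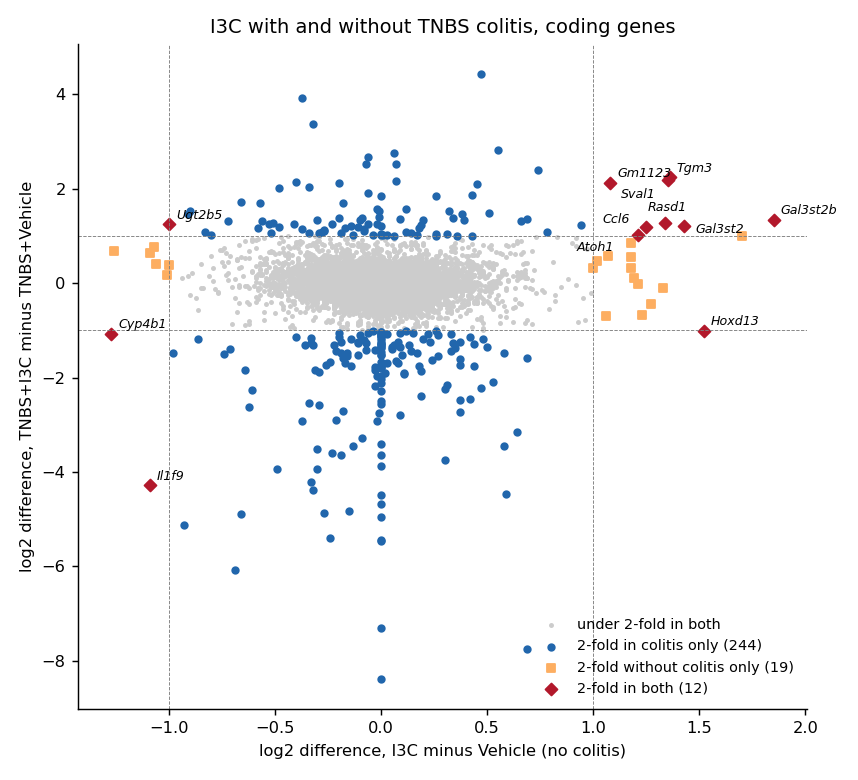
Each point is a protein-coding gene, with its log2 difference between I3C and Vehicle on the x axis and between TNBS+I3C and TNBS+Vehicle on the y axis. Dashed lines mark 2-fold. The 12 red diamonds are the genes past 2-fold on both axes, 8 of them at upper right. Stfa2l1, the lowest gene on the y axis, and Clca1, the highest, are within 2-fold on the x axis.

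Among small non-coding RNAs, the genes higher by 2-fold or more were frequent in some classes and not in others. Of 955 small nucleolar RNAs, which guide chemical modification of other RNAs, 27 were higher and 2 lower by 2-fold or more (2.83% and 0.209%), and 26 of the 27 had values of their own, the other repeating those of a near-identical copy. Snord111 read 12.51 in Vehicle, 11.83 in I3C, 10.49 in TNBS+Vehicle and 12.35 in TNBS+I3C, and Snord123 read 16.54, 16.79, 14.89 and 16.54. Snord90 read 7.03, 6.94, 5.85 and 7.65. In these 3 genes TNBS+Vehicle was the lowest array. TNBS+I3C was at or near the values without colitis for Snord111 and Snord123, and was the highest array for Snord90. Snora62 was the lowest, at 12.75 in TNBS+Vehicle and 11.10 in TNBS+I3C. Of 37 small Cajal body RNAs, annotated as guide RNA, 4 were higher by 2-fold or more, as were 3 of 62 ribosomal RNA genes, and none of either class was 2-fold lower. Of 597 microRNAs, 2 were higher and 3 lower by that much (0.335% and 0.503%), and of 915 small nuclear RNAs 4 were higher and 3 lower (0.437% and 0.328%). By any amount, 418 small nuclear RNAs were higher and 102 lower, and 360 small nucleolar RNAs were higher and 197 lower. For ribosomal RNA genes these counts were 25 and 1, for guide RNAs 20 and 5, and for microRNAs 102 and 132. A difference in RNA preparation between the 2 pools was not tested. Of 3169 long non-coding RNAs, 2 were higher and 2 lower past that threshold. Without colitis, 4 of the 955 small nucleolar RNAs were higher by 2-fold or more with I3C and none lower. The same held for 5 of the 915 small nuclear RNAs and 2 of the 37 guide RNAs, with none lower. Of the 597 microRNAs, 3 were lower and none higher. Among coding genes 0.115% were higher and 0.0472% lower in that comparison.

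**Figure D5:**
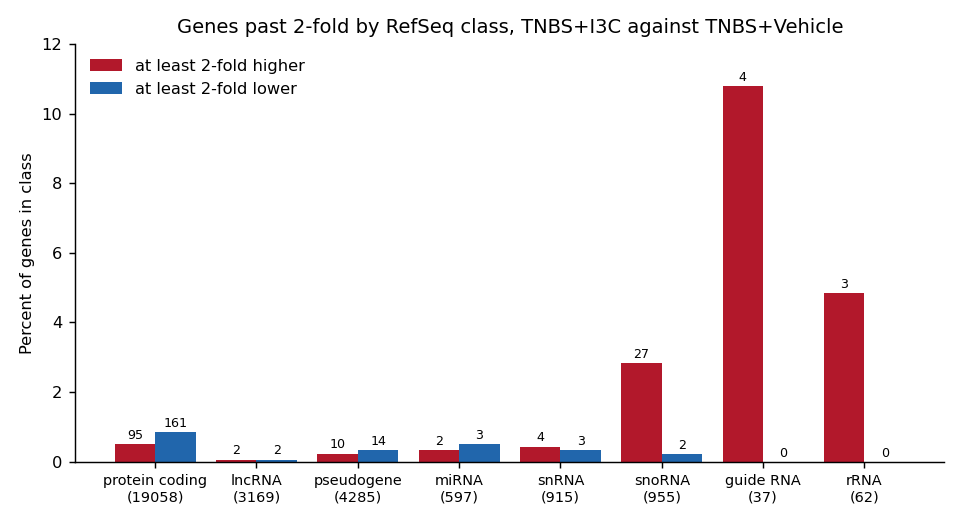
The percent of genes in each RefSeq class higher (red) or lower (blue) by 2-fold or more with I3C in colitis, with the number of genes above each bar and the class size in brackets. Small nucleolar RNAs reach 2.83% higher and guide RNAs 10.8%, on 27 and 4 genes, against 0.498% of protein-coding genes.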

How the data were processed

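RNA of EPCAM-enriched CECs, pooled by group, was hybridised to Clariom D mouse arrays. The deposited values are log2 signals made by the authors with the Transcriptome Analysis Console. Their background correction, normalization and probe build are not stated by these sources. Gene names came from the platform annotation and were brought up to date with RefSeq (GRCm38.p6), where 22596 probe sets matched on gene number and 7721 on symbol, and 332 retained their old symbol. Another 2165 with several symbols, Gapdh among them, and 33142 unnamed were described only as counts. With 1 array per group no test was possible, and the number of arrays limits the precision. Members and gene lists were chosen with earlier results of these data known. Some genes stand in several lists, so the list counts are not independent of each other. A listed gene above background in only 1 of the colitis arrays could differ in only 1 direction. Genes named were the 25 highest and 25 lowest coding genes, up to 4 members with the largest differences of each of 49 lists, and Epcam, Gapdh, Ahr, Il22, Muc2, Tff3 and Mki67. Any other gene was named after its values were seen. The 2-fold counting was run on simulated data with less noise than the spread across genes here, and with changes only in genes well above background. It therefore checks the counting step and says nothing of how reliable the counts are. Alternatives were no floor, a background level of 6, quantile normalization, median centring, the median of a gene's probe sets, coding genes only, and thresholds of 1.5-fold and 3-fold. Promoters are RefSeq sequences. Python 3.11.15, numpy 2.4.6, pandas 2.3.3 and matplotlib 3.10.9 were used.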

Additional observations from a re-analysis of the deposited data

Results flagged for a closer look

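Probe sets outside the named genes also differed between the colitis arrays. Of 35307 probe sets that pair with no single gene symbol, 77 were higher and 202 lower with I3C by 2-fold or more. They were singled out because they are not part of the counts by gene and carry a signal above background in either colitis array. The differences were not tested, and some probe sets hold the same values as another, so the counts include repeats. Of these probe sets, 68 were higher and 106 lower by that much in I3C against Vehicle, arrays that the colitis contrast does not use, and 12 were higher and 14 lower in both settings. The probe set with the largest positive difference read 9.60 in Vehicle, 11.89 in I3C, 10.63 in TNBS+Vehicle and 14.15 in TNBS+I3C. The one with the largest negative difference read 7.10, 3.41, 9.87 and 3.41. In both probe sets, the I3C arrays lay on the same side of their controls with and without colitis.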

How the results depend on the processing

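Over all genes with 1 symbol, 150 were higher and 188 lower by 2-fold or more with I3C in colitis. Both counts stayed within 1.5 times of these without the floor, at a background level of 6, after quantile normalization, after median centring and with the median of a gene's probe sets, where they ranged from 141 to 210 higher and from 158 to 238 lower. Restricted to coding genes the higher count was 95. The excess of lower genes over all genes turned over after quantile normalization (178 higher, 169 lower), was small after median centring (171 and 176) and was not seen at 1.5-fold (628 and 627). At 3-fold the counts were 30 and 88. Among coding genes lower outnumbered higher at 2-fold under each of the same 5 alternatives, for example 151 against 108 after quantile normalization and 156 against 107 after median centring. Among coding genes, all 95 higher genes kept the call without the floor, after quantile normalization and after median centring, and 92 at a background level of 6. Of the 161 lower genes, 161, 151, 156 and 135 did so. The alternatives were recomputed for 197 of the genes, and none of those past 2-fold changed direction. Direction was not followed for smaller differences, some of which fell to 0, as that of Aldh1a3 did at a background level of 6. Other genes named in the text were not recomputed. Without the floor, the differences of S100a8, Mmp8, Olfm4, Nos2, C5ar1 and S100g, each with 1 array at background, grew by 1.5-fold or more. Other genes with 1 array at background moved by less. With the median of its probe sets Scd1 went from 1.21 to 0.61. No paired analysis was possible because each group is 1 pooled array and the labels carry no replicate numbers. For the same reason no array could be left out, and an effect of I3C cannot be told apart from other differences between the 2 pools.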

Other observations

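Genes that corticosteroids are known to induce were gathered after their values were seen. Fkbp5, a chaperone of the glucocorticoid receptor, read 7.95 in Vehicle, 7.79 in I3C, 9.53 in TNBS+Vehicle and 8.06 in TNBS+I3C. Zbtb16 read 6.16, 5.96, 7.23 and 6.09, and the metallothionein Mt2 12.13, 11.92, 16.58 and 13.68. All 3 were highest in TNBS+Vehicle and lower with I3C, as were Hsd11b2, Scnn1g and Pdk4. The kinase Sgk1 differed by -0.66, Mt1 by -0.38 and Tsc22d3 by -0.25, while Per1 differed by 0.25 and Klf9 by 0.25. The receptor gene Nr3c1 read 9.52 in TNBS+Vehicle and 9.67 in TNBS+I3C. The list was not chosen independently of these values and was not tested.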
